A study of Homo sapiens with 18 samples.

Results

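The genes described here encode the proteins of the cytosolic ribosome in OVCAR3, a human ovarian cancer cell line. They were chosen by symbol alone: every gene of the count table named RPL or RPS with its number, together with RPLP0, RPLP1, RPLP2 and RPSA, without pseudogenes, S6 kinase genes or hyphenated read-through genes. The rule found 84 of 28277 genes, of which 52 belong to the large subunit and 32 to the small subunit. They lie on 21 chromosomes, with 12 on chromosome 19 and 4 on chromosome X. The set includes 7 paralogs that duplicate another member, RPL3L, RPL7L1, RPL10L, RPL22L1, RPL26L1, RPL39L and RPS27L.

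RNA-seq was done on total RNA depleted of ribosomal RNA, in 18 libraries that form 6 groups of 3. The cells stably carried dCas9-KRAB, a dead Cas9 fused to a repressor domain, and grew as clonal lines with a control guide (sgControl in the labels, sgCtl here) or with 1 of 2 guides to the XIST promoter, sgXIST7 or sgXIST9. Each guide was sampled in normoxia and after 24 h at 1% oxygen. XIST is the long noncoding RNA that coats and silences 1 X chromosome in female cells. How many clones stand behind each group was not given in the sources used here, so the effect of a guide and that of a clone cannot be told apart. The study calls its replicates biological, the labels do not say whether they are separate cultures, and p-values measure the spread between these libraries.

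Each ribosome carries 1 copy of nearly every one of these proteins, and cells make them in matched amounts. Most of their mRNAs begin with a C followed by a run of pyrimidines, the 5′ terminal oligopyrimidine (TOP) motif. Through it the kinase mTORC1 and the RNA-binding protein LARP1 set how well the mRNAs are translated and how long they last. Hypoxia is known to restrain mTORC1, partly through the induced protein DDIT4 (REDD1). The paralogs are mostly of restricted or variable expression, and several of them can replace their partner in the ribosome.

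The libraries held 11794375 to 24906936 counts assigned to genes. XIST counts checked the labels: they were 4213 to 11209 in sgCtl normoxia and 1589 to 5014 in sgCtl hypoxia, 0 to 5 in all 6 sgXIST7 libraries, and 357 to 1009 in the 6 sgXIST9 libraries. Of 10 ovarian epithelial markers EPCAM (156 to 251 CPM, the counts scaled to the normalized size of the library) and KRT18 (129 to 251 CPM) were high, with KRT8 at 4.07 to 43.3 CPM and PAX8 at 0.828 to 5.94 CPM. The others, which define such epithelium, were at or near 0: KRT7, CDH1 and CLDN3 had at most 3 counts in any library, MUC16 at most 0.182 CPM, CLDN4 at most 0.365 CPM and WT1 at most 0.695 CPM. The markers thus bear out the labelled cell type only in part. Of the fibroblast collagens COL3A1 was high in all libraries (356 to 1060.0 CPM), whereas COL1A2 was at 0.077 to 0.403 CPM in the 6 sgCtl libraries, 67.8 to 306 CPM in sgXIST7 and 31.6 to 69.9 CPM in sgXIST9, and so moved with the guide comparisons. The other fibroblast markers were low in every library: COL1A1 at most 7.08 CPM, DCN 2.66 CPM, LUM 0.532 CPM and PDGFRB 0.467 CPM. The summed level of the 6 fibroblast markers was 628 to 689 CPM in sgXIST9 normoxia against 921 to 969 in sgCtl normoxia and 1085 to 1167 in sgXIST7 normoxia. Most of this sum was COL3A1 in each of these groups. The part of these markers in the guide comparisons was not tested. The leukocyte and endothelial lists summed to at most 0.595 and 0.684 CPM. Of 10 hypoxia-induced genes 9 rose in each of the 3 hypoxia comparisons.

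The start sequences show what the main members share and where their paralogs depart from it. Of the 84 members 67 were found in the RefSeq promoter table (GRCh38.p14), and 47 of these (70.1%) had a C followed by 4 pyrimidines at a listed transcription start, against 5.14% of all 27305 genes of the table. Only 1 of the 5 paralogs found there, RPL22L1, had such a start. Each line gives 10 bases before and 20 bases from the listed start, 5′ to 3′ on the gene's strand, with the pyrimidine run that begins at the start in capitals.
RPLP1, chr15:69452808-69452837, + strand: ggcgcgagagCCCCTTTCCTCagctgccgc
RPL13A, chr19:49487598-49487627, + strand: aaacctcctcCTTTTCCaagcggctgccga
RPL39, chrX:119791611-119791640, - strand: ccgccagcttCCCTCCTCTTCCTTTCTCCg
RPL22, chr1:6199576-6199605, - strand: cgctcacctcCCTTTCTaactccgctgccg
RPL22L1, chr3:170870176-170870205, - strand: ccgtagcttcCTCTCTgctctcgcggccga
RPL26, chr17:8383174-8383203, - strand: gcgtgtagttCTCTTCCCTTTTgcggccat
RPL26L1, chr5:172958719-172958748, + strand: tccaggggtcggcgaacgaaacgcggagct
RPS27, chr1:153990752-153990781, + strand: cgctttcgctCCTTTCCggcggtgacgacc
RPS27L, chr15:63157458-63157487, - strand: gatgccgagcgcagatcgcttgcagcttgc

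RPL26 and RPS27 carried the run, whereas their paralogs RPL26L1 and RPS27L had none at the listed start. RPL26L1 had a second listed start, also without it. A listed start can miss the base that cells use: RPS28 (higher in hypoxia in all 3 lines) and RPS4X (lower in sgXIST7) had no run at the listed start. In RPS28 a pyrimidine run stands just after that base. Within the whole 300-base promoters the letters CCGGAA, the core that ETS factors bind, stood on either strand in 58.2% of the 67 members and 20.1% of all promoters. AAGATGG, the core of a YY1 site, which can overlap the former by 2 letters, stood in 13.4% and 7.11%. The core promoter letters TATAAA stood in 10.4% and 14.0%. These matches are letters in a window and not sites shown to be bound.

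Cytosolic ribosomal protein mRNAs took 3.68 to 4.66% of the counts of a library. Their share was 4.46 ± 0.29% (SD, n = 3) in sgCtl normoxia and 4.05 ± 0.48% in sgCtl hypoxia. It was 4.22 ± 0.30% and 4.08 ± 0.22% in sgXIST7, and 4.50 ± 0.05% and 4.36 ± 0.28% in sgXIST9, so that the hypoxia and normoxia means of each guide differed by less than the larger of their SDs. Per length, the highest mean levels were those of RPS12 (2351 CPM per kb), RPS2 (1608 CPM per kb) and RPS27 (1604 CPM per kb), all of the small subunit. Length counted all listed exon bases, 503 for RPS12 but 7572 for RPL37, so this order depends on the annotation. RPL10L, a paralog known from the testis, had 0 counts in all 18 libraries, and RPL3L, the paralog of heart and skeletal muscle, had 7 counts in all, at most 2 in a library. These are at or under the floor of 3 counts, and both were the only members left out of the tests.

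Several levels are uncertain. Reads of ribosomal protein genes can match processed pseudogenes or repeated contigs, how such reads were counted was not given in the sources used here, and their part in these values was not tested. RPS18, a common reference gene, had 3 to 15 counts in 6 libraries and 2256 to 9522 in the other 12, with both kinds in every group. RPS9 had 2 to 16 counts in all 18 libraries. When the alternate contigs of hg38 were counted, RPS18, RPS9 and RPL21 had 0% of their 50-base exon windows occurring once in the genome, against 38.7%, 68.4% and 0% without those contigs. Among genes with a top count of at least 500, 5 of 194 with alternate contigs (2.58%) varied at least 50-fold within a group, RPS18 among them. Only 1 of 8431 genes without such contigs (0.0119%), CD99, did so. In all, 20 members had under 50% of windows occurring once, and RPL17 and RPS10 shared 52.4% and 60.0% of their exon bases with read-through genes. Results for these members are uncertain, which includes the third lowest tested level per length, that of RPS10 (9.41 CPM per kb), and the lowest, that of RPS9 (0.535 CPM per kb), with RPL36A (1.93 CPM per kb) between them. Also among the 20 are RPS2 (16.3% of windows occurring once), RPS13 (41.2%), RPLP0 (41.9%), RPL12 (43.6%) and RPL24 (45.15%), whose calls are given below.

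**Figure D1:**
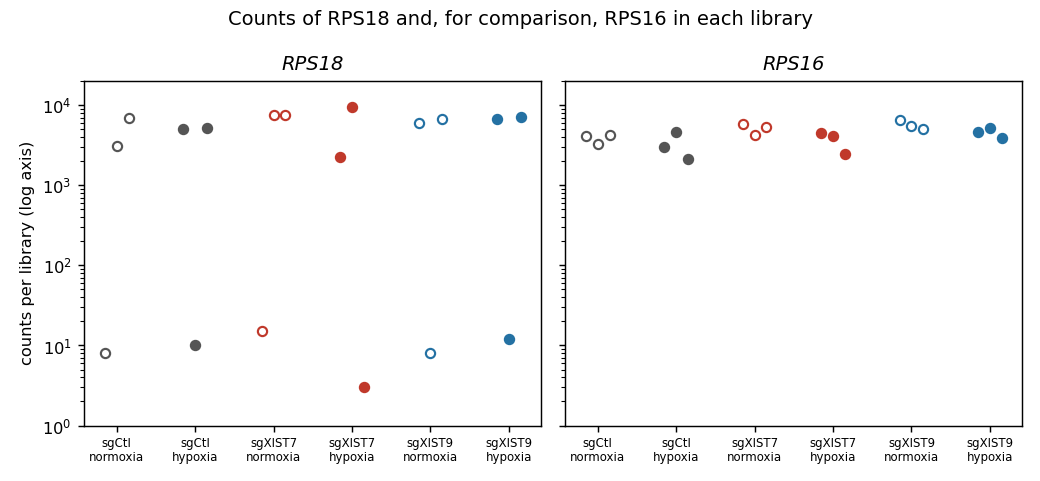
Counts per library (log axis) of RPS18 and, for comparison, RPS16 in the 6 groups, 1 point per library. RPS18 falls into a low class (3 to 15 counts) and a high class (2256 to 9522 counts) within groups, whereas RPS16 does not.

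The members moved together from library to library. In sgCtl hypoxia replicate 3 their median level stood 0.27 (log2) above the mean of its group, with 6 of 82 members below it, and in sgCtl hypoxia replicate 2 it stood at -0.20, with 69 members below. In normoxia, 81 members of sgCtl replicate 2 and 78 of sgXIST7 replicate 2 lay below their group means, by medians of -0.17 and -0.25. RPL3, a core protein of the peptidyl transferase centre, shows the pattern: its level in sgCtl hypoxia was 528, 513 and 1092 CPM. The first and second libraries lay below all 3 normoxia libraries (739.9, 680.0 and 759 CPM) and the third above them.

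**Figure D2:**
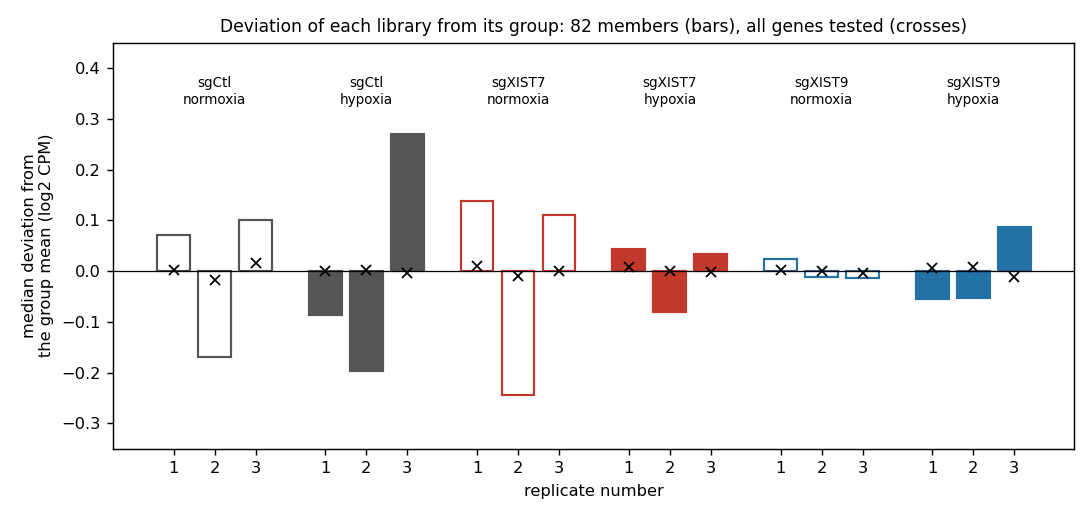
Median deviation of the 82 tested members (bars) and of all tested genes (crosses) from the mean of the library's own group, in log2 units. The bar of sgCtl hypoxia replicate 3 reaches 0.27, while the crosses stay near 0.

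The first question was how 24 h of hypoxia changed these mRNAs in each guide line. In sgCtl, 3 of 82 tested members rose and 12 fell (edgeR's quasi-likelihood test, Benjamini-Hochberg adjusted p under 0.05), where 26.1% of all 14938 tested genes rose and 25.2% fell. In sgXIST7 15 rose and 6 fell, where 29.5% of all genes rose and 29.5% fell. In sgXIST9 7 rose and 10 fell, beside 30.5% and 24.8% of all genes. The share of members called was thus 18.3%, 25.6% and 20.7%, each below the 51.4%, 59% and 55.3% of all genes called in either direction. Their median log2 fold changes were -0.16, 0.14 and -0.04, beside 0.02, 0.01 and 0.09 over all genes.

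Fold changes of the members were small. They stayed within 0.5 on the log2 scale in either direction for 91.5%, 82.9% and 92.7% of members in sgCtl, sgXIST7 and sgXIST9, against 47.6%, 40.9% and 45.4% of all genes. At the thresholds used by the study, an adjusted p under 0.01 with a log2 fold change beyond 1, 0 members rose, while 1, 4 and 2 fell. At an unadjusted p under 0.05 and any fold 10, 16 and 8 members rose and 14, 8 and 11 fell. Of all 14938 genes 8507, 9422 and 8962 passed that limit in either direction. DESeq2 called 11, 17 and 7 members higher and 11, 5 and 11 lower at an adjusted p under 0.05. At the thresholds of the study 11.3%, 15.1% and 14.7% of all genes rose and 8.49%, 12.2% and 8.58% fell, and the members past them were RPL22L1, RPL26L1, RPL39L and RPS26. By subunit, in sgCtl 2 of 50 large subunit genes rose and 8 fell, and 1 of 32 small subunit genes rose and 4 fell. In sgXIST7 7 and 8 rose and 4 and 2 fell, and in sgXIST9 4 and 3 rose and 7 and 3 fell. With the 62 tested members that had at least 50% of windows occurring once, 2 rose and 7 fell in sgCtl, 10 and 5 in sgXIST7, and 8 fell and 4 rose in sgXIST9.

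The count of members that fell in sgCtl rested on a library. Without sgCtl hypoxia replicate 3, 38 members fell and 2 rose, where 26.1% of all genes fell and 27.1% rose, and the member median was -0.30. Without sgCtl normoxia replicate 1 or 3, 5 and 6 fell, and without sgCtl hypoxia replicate 1 or 2, 7 and 6 fell, while 9 and 7 rose. Same-numbered sgCtl libraries correlated weakly in their deviations from the group means (0.103 to 0.136 over all tested genes). The members of replicate 1 deviated in opposite directions, with medians of 0.07 in normoxia and -0.09 in hypoxia. With the replicate number as a block over all 18 libraries, 9 rose and 19 fell, where 27.5% of all genes rose and 27.2% fell. Members that gained a call as higher included RPL13A (adjusted p = 0.030), RPL39 (0.033), RPLP0 (0.040), RPSA (0.042) and RPS19 (0.043), and the 7 gained as lower were RPL10, RPL21, RPL22, RPS7, RPS23, RPS24 and RPS27A (0.011 to 0.046). In sgXIST7 the count that rose was 9 without normoxia replicate 2, and in sgXIST9 it was 2 without normoxia replicate 3 and 4 without normoxia or hypoxia replicate 2, while 5 and 6 fell without hypoxia or normoxia replicate 1. Scaling to library totals alone moved the median of all genes in sgXIST7 to -0.23, with 3272 of all genes higher and 5769 lower in place of 4411 and 4405, and then 5 members rose and 21 fell.

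**Figure D3:**
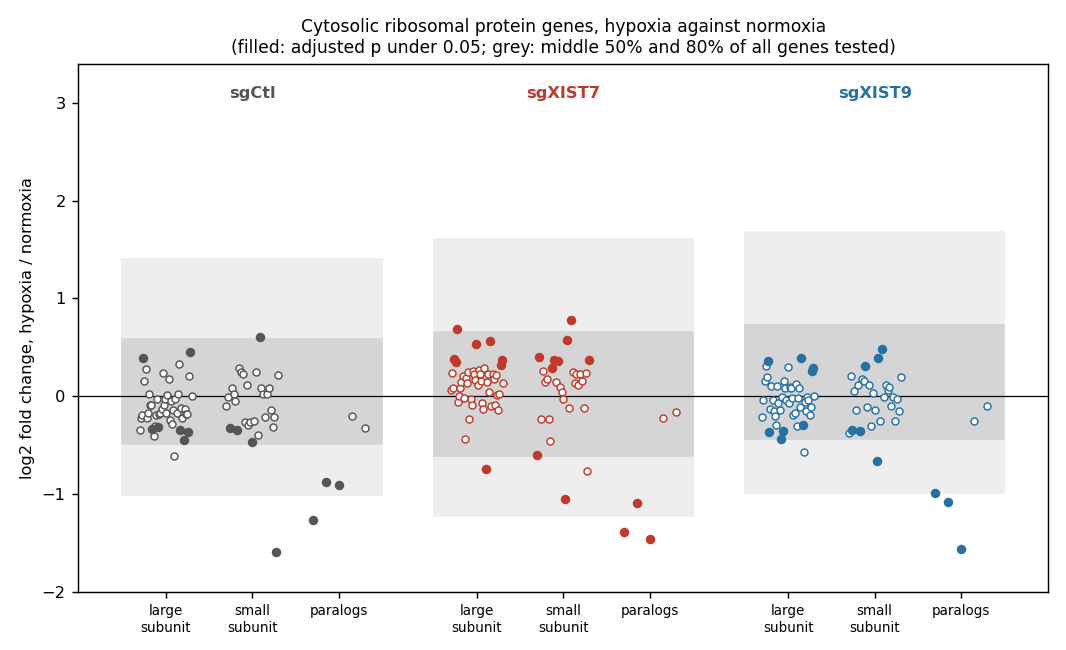
Log2 fold change in hypoxia against normoxia of each tested member in sgCtl, sgXIST7 and sgXIST9, for the large subunit, the small subunit and the paralogs, with filled points past the test (adjusted p under 0.05) and grey bands for the middle 50% and 80% of all tested genes. Most points lie inside the inner band, the paralogs RPL22L1, RPL26L1 and RPL39L lie below it, and 2 tested members that are not reported here are not drawn.

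Of the 82 tested members, 3 fell in all 3 comparisons, and all 3 are paralogs. In the single comparisons 25.2%, 29.5% and 24.8% of all tested genes fell, and the share falling in all 3 was not counted. Of the 5 tested paralogs 60% were called in each comparison, beside 51.4%, 59% and 55.3% of all genes. RPL22L1, the paralog of the RNA-binding large subunit protein RPL22, was at 233, 171 and 225 CPM in sgCtl normoxia and at 87.1, 48.3 and 126 CPM in hypoxia. In sgXIST7 it was at 254, 164 and 248 CPM and then at 113, 73.4 and 67.2 CPM. In sgXIST9 it was at 263, 241 and 245 CPM and then at 131, 116 and 130.3 CPM. Every hypoxia library lay below every normoxia library of its guide. The log2 fold changes were -1.27 ± 0.27 (SE; edgeR adjusted p = 0.00079), -1.39 ± 0.27 (adjusted p = 0.00026) and -0.99 ± 0.26 (adjusted p = 0.0045).

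RPL26L1, the paralog of RPL26, the protein that also binds the mRNA of p53, behaved likewise at a lower level. In sgCtl it went from 32.7, 30.2 and 34.8 CPM to 15.9, 17.3 and 19.9 CPM (log2 fold change -0.88 ± 0.15, SE; edgeR adjusted p = 0.00011). In sgXIST7 it went from 41.7, 26.7 and 37.8 CPM to 17.1, 14.9 and 18.2 CPM (-1.09 ± 0.15; edgeR adjusted p = 7.8e-06). In sgXIST9 it went from 41.6, 40.9 and 44.4 CPM to 18.6, 19.8 and 21.5 CPM (-1.08 ± 0.15; edgeR adjusted p = 9.5e-06). Again no hypoxia library reached the lowest normoxia library of its guide.

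RPL39L, the paralog of RPL39, a small protein that lines the exit tunnel, had the most negative values of the 3 in the knockdown lines. It went from 27.4, 22.7 and 27.2 CPM to 13.1, 13.6 and 14.6 CPM in sgCtl, a log2 fold change of -0.91 ± 0.14 (SE; edgeR adjusted p = 6.3e-05). It went from 32.7, 23.1 and 32.3 CPM to 12.1, 9.65 and 10.3 CPM in sgXIST7, by -1.46 ± 0.14 (edgeR adjusted p = 2.3e-07). It went from 37.4, 34.1 and 34.8 CPM to 11.6, 13.1 and 11.2 CPM in sgXIST9, by -1.56 ± 0.14 (edgeR adjusted p = 1.3e-07). The groups did not overlap in any of the 3 lines. The calls of RPL22L1, RPL26L1 and RPL39L held in every alternative run, including each library left out in turn.

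None of their partners was called lower without the block. RPL22 changed by -0.30, 0.19 and 0.11 (log2) in sgCtl, sgXIST7 and sgXIST9 (edgeR adjusted p = 0.17, 0.38 and 0.63), and RPL26 by -0.18, -0.03 and -0.01 (adjusted p = 0.47, 0.90 and 0.97), with hypoxia and normoxia libraries overlapping throughout. With the block, the fall of RPL22 in sgCtl passed (-0.31, adjusted p = 0.036). RPL39 went the other way in the knockdown lines. It was at 326, 229 and 366 CPM in sgXIST7 normoxia and at 482, 461 and 418 CPM in hypoxia, a rise of 0.56 ± 0.15 (SE; edgeR adjusted p = 0.0041). In sgXIST9 it went from 354, 327 and 351 CPM to 476, 452 and 428 CPM (0.39 ± 0.15; edgeR adjusted p = 0.036), a call that was lost without any 1 of 5 libraries, all but hypoxia replicate 3, at values of 0.35 to 0.41. In sgCtl it was at 336, 259 and 364 CPM and then at 421, 355 and 432 CPM, which did not pass the test without the block (0.33; edgeR adjusted p = 0.076) and passed with it (0.34, adjusted p = 0.033). RPL39 has 8.64% of its windows occurring once, so its level is uncertain, whereas RPL39L has 96.9% and RPL22L1 99.7%.

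**Figure D4:**
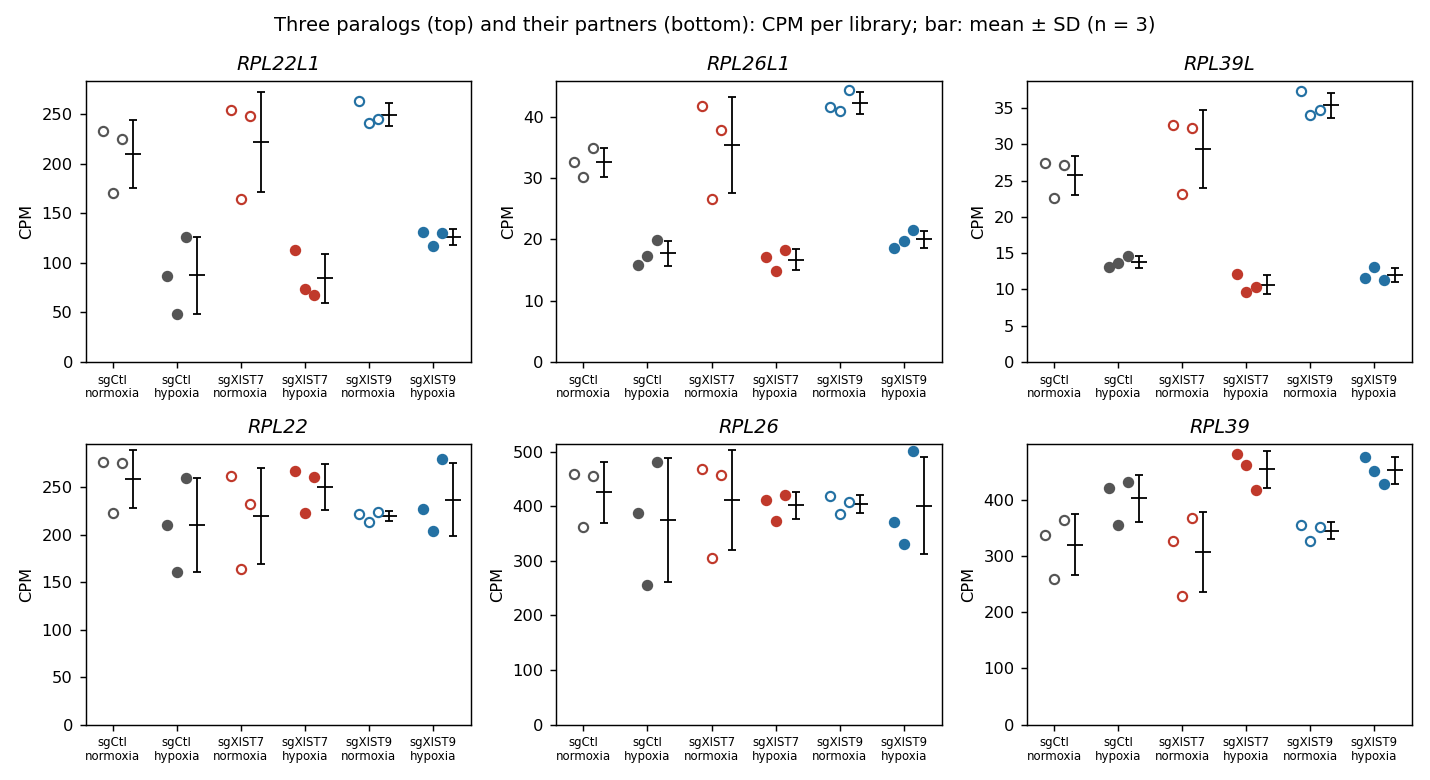
CPM per library of RPL22L1, RPL26L1 and RPL39L (top) and their partners RPL22, RPL26 and RPL39 (bottom) by guide, open points for normoxia and filled points for hypoxia, with mean and SD of 3 libraries. The filled points of the paralogs lie below the open ones in all 3 guides, and those of the partners do not.

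The other 2 tested paralogs were not called in hypoxia. RPL7L1, which resembles RPL7 and takes part in ribosome assembly, changed by -0.20, -0.23 and -0.25 (log2; edgeR adjusted p = 0.20, 0.14 and 0.11). RPS27L, a p53 target that resembles RPS27, changed by -0.32, -0.16 and -0.10 (edgeR adjusted p = 0.20, 0.53 and 0.70). Of their partners, RPL7 changed by -0.13, 0.22 and -0.00 with no call. RPS27 rose in sgXIST7, from 887, 589 and 883 CPM to 1348, 1126 and 1046 CPM (0.58; edgeR adjusted p = 0.0037). In sgXIST9 it rose by 0.39 (edgeR adjusted p = 0.039), a call lost without any 1 of 5 libraries, all but hypoxia replicate 3, at 0.36 to 0.41, or with library totals alone (0.33), and in sgCtl its change of 0.25 did not pass (adjusted p = 0.19). Without the paralogs, 3 of 77 members rose and 9 fell in sgCtl, 15 and 3 in sgXIST7, and 7 and 7 in sgXIST9.

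Members that rose in all 3 comparisons of the fit without the block were RPLP1 and RPS28. With the block RPL12, RPL13A, RPL39 and RPLP0 joined them, RPL12 through sgXIST9, where same-numbered libraries were not taken as paired. RPS28, a small subunit protein near the mRNA exit channel, had the larger change. In sgCtl it went from 168, 146 and 162 CPM to 227, 223 and 276 CPM (log2 fold change 0.61 ± 0.13, SE; edgeR adjusted p = 0.00072). In sgXIST7 it went from 182, 155 and 190.3 CPM to 299, 291 and 317 CPM (0.78 ± 0.13; edgeR adjusted p = 4.9e-05). In sgXIST9 it went from 204, 217 and 190.1 CPM to 254, 343 and 259 CPM (0.49 ± 0.13; edgeR adjusted p = 0.0036). Every hypoxia library lay above every normoxia library of its guide, and the 3 calls held in every alternative run.

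The stalk of the large subunit, which recruits the elongation factors, is built from RPLP0 and dimers of RPLP1 and RPLP2. RPLP1 went from 487, 415 and 461 CPM to 589.6, 638 and 636 CPM in sgCtl, a log2 fold change of 0.45 ± 0.09 (SE; edgeR adjusted p = 0.00078). In sgXIST7 it rose from 496, 426 and 502 CPM to 614, 586 and 645 CPM (0.37 ± 0.09; edgeR adjusted p = 0.0026), and in sgXIST9 from 544, 547 and 516 CPM to 611, 696 and 653 CPM (0.29 ± 0.09; edgeR adjusted p = 0.016). No groups overlapped. The sgXIST7 call was lost when only library totals were used (0.14), and that of sgXIST9 without its normoxia replicate 3 or hypoxia replicate 2 (0.26 and 0.24) or with no filter (0.28). RPLP0 rose by 0.32 in sgXIST7 (edgeR adjusted p = 0.0053) and by 0.25 in sgXIST9 (adjusted p = 0.023), and its 0.21 in sgCtl missed the threshold (adjusted p = 0.059) but passed with the block (adjusted p = 0.040). With library totals alone RPLP0 lost its sgXIST7 call (0.09), and with no filter its sgXIST9 call (0.25). The sgXIST9 call of RPLP0 was lost without normoxia replicate 2 or 3 or hypoxia replicate 2 (0.23 to 0.25). RPLP2 changed by -0.00, 0.13 and 0.01, with overlapping groups and adjusted p from 0.37 to 0.99.

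Without the block, exactly 2 of the 3 comparisons called RPL12, RPL13A, RPL39, RPLP0, RPS2 and RPS27 higher and RPL24, RPL4, RPS13, RPS16 and RPS26 lower. In all, 15 members rose in at least 1 comparison, 17 fell in at least 1, none did both, and 50 were called in none. The matching shares of all genes were not counted. RPL13A, a reference gene that also takes part in inflammatory translational control, rose most among the reference genes, from 1225, 1051 and 1157 CPM to 1944, 1732 and 1836 CPM in sgXIST7 (log2 fold change 0.68 ± 0.12, SE; edgeR adjusted p = 9.8e-05). In sgXIST9 it rose by 0.36 (edgeR adjusted p = 0.016), a call lost without normoxia replicate 3 (0.35), and in sgCtl the value was 0.28 (adjusted p = 0.055, and 0.030 with the block). RPL12, which sits at the base of the stalk, rose by 0.39 in sgCtl (edgeR adjusted p = 0.028) and 0.38 in sgXIST7 (adjusted p = 0.030), with 0.31 in sgXIST9 (adjusted p = 0.071, and 0.024 with the block). Its sgCtl call was lost without hypoxia replicate 3 or normoxia replicate 1 or 2 (0.22 to 0.42) and with only the compared groups (0.42).

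RPS26, a small subunit protein that contacts mRNA upstream of the start codon, fell in both knockdown lines. It was at 109, 71.3 and 104 CPM in sgXIST7 normoxia and at 62.1, 32.8 and 42.0 CPM in hypoxia (log2 fold change -1.06 ± 0.23, SE; edgeR adjusted p = 0.00096). In sgXIST9 it went from 126, 108 and 96.8 CPM to 66.2, 71.3 and 71.0 CPM (-0.67 ± 0.23; edgeR adjusted p = 0.021), a call lost without normoxia or hypoxia replicate 1 (-0.56 and -0.63). In sgCtl it was at 58.8, 73.6 and 110.1 CPM and then at 57.3, 73.7 and 72.5 CPM, so that the groups overlapped (-0.25; adjusted p = 0.38). RPS16, a small subunit protein whose tail contacts the tRNA in the P site, fell by 0.34 in sgCtl (edgeR adjusted p = 0.0079) and by 0.35 in sgXIST9 (adjusted p = 0.0061), and its -0.23 in sgXIST7 just missed the threshold, with no overlap in any line. Fitted with only the compared groups, RPS16 lost its sgCtl call (-0.32).

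Members with a known regulatory role were called in few comparisons. RPS6, the substrate of S6 kinase, changed by -0.14, 0.16 and -0.01 (log2) in sgCtl, sgXIST7 and sgXIST9, with edgeR adjusted p of 0.43, 0.34 and 0.95. RPL5 and RPL11, which bind MDM2 and thereby stabilize p53, were not called in hypoxia against normoxia: RPL5 changed by -0.23, 0.17 and -0.06 and RPL11 by -0.19, 0.08 and 0.15. RPS19, mutated in Diamond-Blackfan anaemia, rose in sgXIST7 by 0.29 (edgeR adjusted p = 0.023), a call lost without normoxia replicate 2 (0.21) or with library totals alone (0.05). Its 0.24 in sgCtl passed with the block alone (edgeR adjusted p = 0.043, and 0.054 without it), and its 0.16 in sgXIST9 did not pass. RPL41, which encodes the shortest ribosomal protein, ranged from 66.2 to 193 CPM and was not called. RPSA, also known as the laminin receptor precursor, rose in sgXIST7 by 0.37 (edgeR adjusted p = 0.0027), with 0.22 and 0.19 in sgCtl and sgXIST9 (adjusted p = 0.062 and 0.087). With library totals alone the sgXIST7 call was lost (0.13), and with the block the sgCtl value passed (adjusted p = 0.042).

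Members with and without the pyrimidine start can be set side by side. The 47 with it had median log2 fold changes in hypoxia of -0.13, 0.15 and 0.01 in sgCtl, sgXIST7 and sgXIST9, and the 19 tested members without it had -0.20, 0.01 and -0.13. Of the former 2, 11 and 5 rose and 6, 3 and 5 fell. Of the latter 1, 2 and 1 rose and 5, 2 and 4 fell, which includes RPL26L1. Beside these counts, 26.1%, 29.5% and 30.5% of all tested genes rose and 25.2%, 29.5% and 24.8% fell. The split rests on the exact listed base. RPS28, RPL10A and RPL4 were placed among those without such a start, yet each holds a pyrimidine run shortly after it.

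Other genes of the translation machinery were read from the same fit. Over all tested genes 26.1%, 29.5% and 30.5% rose and 25.2%, 29.5% and 24.8% fell in sgCtl, sgXIST7 and sgXIST9. Of 77 tested mitochondrial ribosomal protein genes 36, 54 and 54 fell in sgCtl, sgXIST7 and sgXIST9, and 2, 2 and 1 rose, with medians of -0.34, -0.51 and -0.52. Of 33 ribosome assembly genes 14, 24 and 25 fell and 3, 4 and 0 rose, with medians of -0.33, -0.51 and -0.62. Of 25 tested genes for translation factors and other TOP mRNAs 3, 7 and 5 rose and 6, 4 and 8 fell, with medians of -0.09, 0.02 and -0.09. Among these EIF4A2, an RNA helicase of initiation, rose by 1.17, 1.05 and 1.14, and TPT1, a growth-linked TOP mRNA, by 0.67, 1.22 and 0.94, each past the test. However, 19, 12 and 15 of the 25 had values below 0. EIF3M went from 236, 205 and 234 CPM to 130, 137 and 134 CPM in sgCtl, and HNRNPA1 from 1036, 893 and 1027 CPM to 346, 333 and 637 CPM. In sgXIST7 EIF3M went from 218, 176 and 213 CPM to 140, 116 and 127 CPM. In sgXIST9 it went from 231, 219 and 222 CPM to 127, 123 and 136 CPM. Of 13 noncoding snoRNA hosts with TOP starts 2, 7 and 7 fell and 1 rose in each line.

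Of the 17 mTORC1 and LARP1 genes 3, 4 and 3 rose and 6, 8 and 7 fell. The share called was thus 52.9%, 70.6% and 58.8%, beside 51.4%, 59% and 55.3% of all tested genes. DDIT4 rose by 3.19, 2.56 and 3.19 (log2), and MTOR itself fell by 0.82, 1.04 and 1.08, each past the test. LARP1 fell in sgXIST7 (-0.71, edgeR adjusted p = 0.0010), with -0.15 in sgCtl and -0.38 in sgXIST9 (adjusted p = 0.44 and 0.051). In these bulk samples fewer cells of a kind and less RNA per cell cannot be told apart.

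The second question was whether the lines with XIST knockdown differed from sgCtl. Both knockdown lines were compared with the same sgCtl libraries, so their values are not independent of each other. In normoxia 5 members were lower in sgXIST7 and 0 higher, where 10.5% of all genes were lower and 11.1% higher. At an unadjusted p under 0.05, 2 members were higher and 10 lower, and DESeq2 called 1 higher and 7 lower. In sgXIST9 3 members were higher and 0 lower, where 10.5% of all genes were higher and 11% lower. At an unadjusted p under 0.05, 6 were higher and 2 lower, and DESeq2 called 6 higher and 0 lower. The member medians were -0.05 and 0.05.

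RPS4X carried the largest difference between guides among the 82 tested members past a test. It encodes the small subunit protein eS4 and is 1 of 4 X-linked members, at chrX:72272043-72277248 (hg38, - strand), 1.54 Mb from XIST. Its Y-linked counterpart is known to make an equivalent protein, and RPS4X is known to escape X inactivation. Its listed start holds no C plus 4 pyrimidines.
RPS4X, chrX:72277229-72277258, - strand: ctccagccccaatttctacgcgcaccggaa

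RPS4X was at 829, 732 and 852 CPM in sgCtl normoxia and at 783, 685 and 985 CPM in sgCtl hypoxia. In sgXIST7 it was at 461, 382 and 466 CPM and at 473, 468 and 477 CPM. In sgXIST9 it was at 932, 896 and 913 CPM and at 975, 885 and 1056 CPM. All 6 sgXIST7 libraries lay below all other 12. The log2 fold change of sgXIST7 against sgCtl was -0.88 ± 0.12 in normoxia (SE; edgeR adjusted p = 4.4e-05) and -0.79 ± 0.12 in hypoxia (adjusted p = 9.0e-05). Against sgXIST9 in normoxia it was -1.07 ± 0.12 (edgeR adjusted p = 1.4e-05). The difference of sgXIST9 from sgCtl did not pass, at 0.18 in normoxia and 0.25 in hypoxia (edgeR adjusted p = 0.33 and 0.14), although with the block the value in hypoxia passed (0.26, adjusted p = 0.046). Hypoxia moved RPS4X by 0.02, 0.11 and 0.09 in the 3 lines with no call. The sgXIST7 calls held in every alternative run.

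The other X-linked members were not called between guides. RPL10, a protein that joins the large subunit late in assembly, was lower in sgXIST7 by 0.29 in normoxia and higher by 0.11 in hypoxia, neither past the test (edgeR adjusted p = 0.34 and 0.67), although the normoxia libraries did not overlap. RPL39 and RPL36A did not pass either. Of 29 other tested genes within 2 Mb of RPS4X, XIST not counted, 3 were lower and 3 higher in sgXIST7 against sgCtl in normoxia, 7 and 3 in hypoxia, and 3 lower and 0 higher against sgXIST9 in normoxia. Of 499 tested genes on the X, 60 were lower and 42 higher, 100 and 94, and 22 and 23 in the same comparisons. Of all tested genes 10.5% were lower and 11.1% higher, and 21.6% and 20.7% in hypoxia. Against sgXIST9, 8.88% were called in either direction.

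**Figure D5:**
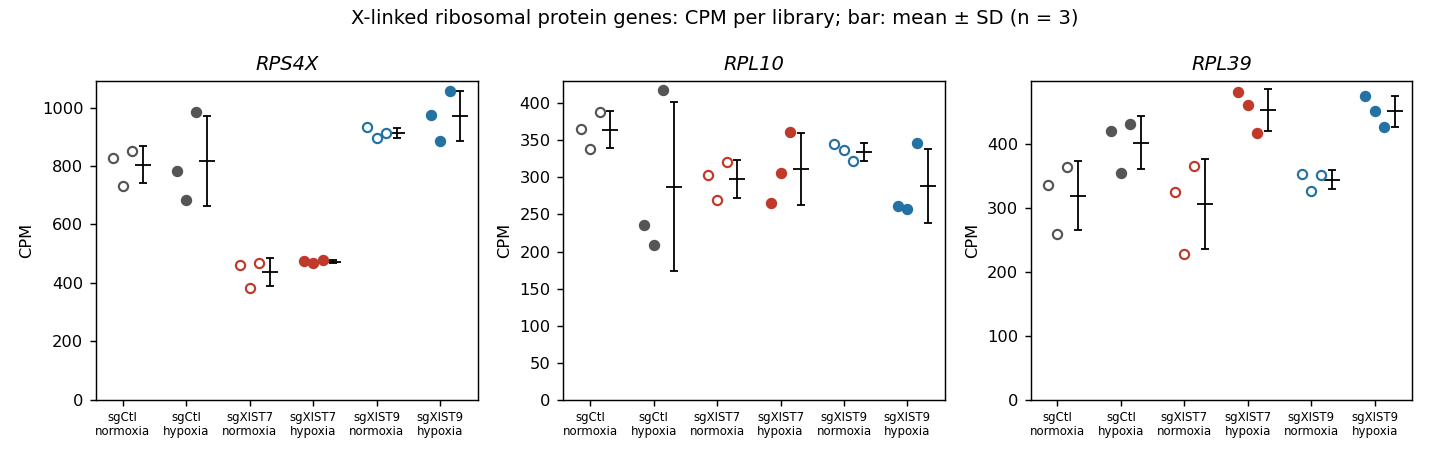
CPM per library of the X-linked members RPS4X, RPL10 and RPL39 by guide, open points for normoxia and filled points for hypoxia, with mean and SD of 3 libraries. For RPS4X the sgXIST7 points lie between 382 and 477 CPM, below all others, whereas over both conditions the ranges of RPL10 and RPL39 overlap those of sgCtl.

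The remaining calls in normoxia were smaller, and most were lost when a library was left out. In sgXIST7 RPS27L was lower by 0.65 (58.3, 30.3 and 47.5 CPM against 80.3, 57.2 and 77.0 CPM, overlapping; edgeR adjusted p = 0.031), RPL37A by 0.54 (adjusted p = 0.041), RPL7L1 by 0.38 (adjusted p = 0.042) and RPS2 by 0.30 (adjusted p = 0.029). All 4 lost their call without sgCtl normoxia replicate 1, without sgCtl normoxia replicate 3 or without sgXIST7 normoxia replicate 2, at values of -0.60 to -0.25, and the count lower was then 1. Without sgXIST7 normoxia replicate 2, 1 member was higher. Without sgXIST7 normoxia replicate 3, 2 members were lower, since RPL7L1, RPS2 and RPS27L also lost theirs (-0.69 to -0.26). RPL37A also lost its call without sgXIST7 normoxia replicate 1 (-0.62). Fitted with only the compared groups RPS27L (-0.64) and RPL7L1 (-0.37) lost theirs, and with no filter RPL7L1 (-0.39) and RPS2 (-0.31) did. With the block, for which these libraries deviated together, RPL31 was also lower (-0.42, edgeR adjusted p = 0.036).

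In sgXIST9, RPL39L was higher in normoxia by 0.46 (37.4, 34.1 and 34.8 CPM against 27.4, 22.7 and 27.2 CPM; edgeR adjusted p = 0.025), and RPLP2 and RPS28 by 0.36 each (adjusted p = 0.047 and 0.049). The groups did not overlap for any of the 3. RPLP2 and RPS28 lost their calls without any 1 of the 6 libraries (0.28 to 0.41) or with no filter (0.36 each), and RPL39L without sgCtl replicate 2 or any sgXIST9 replicate (0.37 to 0.48), and the count of members higher was then 0, except 1 without sgCtl replicate 1 and 2 without sgCtl replicate 3. Between the knockdown lines in normoxia RPS4X was the only member called (8.88% of all genes were). Without sgXIST7 normoxia replicate 1, 2 members were called. DESeq2 called 4 members lower in sgXIST7, and 8 were lower and 0 higher at an unadjusted p under 0.05.

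In hypoxia 9 members were higher in sgXIST7 than in sgCtl and 2 lower, where 20.7% of all genes were higher and 21.6% lower. In sgXIST9 3 were higher and 0 lower, where 15.5% and 14.1% of all genes were. DESeq2 called 2 members higher and also 0 lower in sgXIST9, and 6 were higher and 0 lower at an unadjusted p under 0.05. The member medians were 0.15 and 0.10. Without sgCtl hypoxia replicate 3 the counts became 36 higher and 2 lower in sgXIST7 (26.2% of all genes higher, 26% lower; median 0.29) and 29 higher and 0 lower in sgXIST9 (21.8% and 19.1%; median 0.25). Without sgCtl hypoxia replicate 1 or 2, 2 and 1 were higher in sgXIST7, and without its own hypoxia replicates 1, 2 and 3 it was 4, 4 and 3, with 5, 1 and 1 lower. In sgXIST9 the count higher was 0 without sgCtl replicate 1 or 2 or its own replicate 3 and 1 without its own replicate 1 or 2, with 1 lower without sgCtl or sgXIST9 replicate 2. With library totals alone 3 members were higher and 8 lower in sgXIST7, as the median of all genes moved to -0.18, with 2285 higher and 4530 lower in place of 3093 and 3220. With the replicate number as a block, for which the same-numbered sgXIST9 and sgCtl hypoxia libraries deviated together, 8 were higher in sgXIST9, where 17.8% of all genes were. The 5 gained were RPL11, RPL22L1, RPL27A, RPS4X and RPS25, with adjusted p of 0.0051 to 0.046.

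Of the members higher in sgXIST7 in hypoxia, RPSA had the smallest adjusted p. It was at 1311, 1393 and 1322 CPM against 968, 982 and 1145 CPM in sgCtl, a difference of 0.38 ± 0.09 (log2, SE; edgeR adjusted p = 0.0039), and it held its call without each library in turn, though only 29.8% of its windows occur once. Fitted with only the compared groups it lost the call (0.38, adjusted p = 0.080), as did each member named next: RPL27A (0.48), RPLP2 (0.43), RPS27A (0.46), RPL5 (0.34) and RPL7L1 (-0.40), and in sgXIST9 RPL7 (0.39) and RPLP2 (0.38). RPL27A was higher by 0.48 (edgeR adjusted p = 0.016; 0.32 and no call without sgCtl replicate 2). RPLP2 was higher by 0.42 (edgeR adjusted p = 0.012), a call lost without sgCtl replicate 1 or 2 (0.35 and 0.34). RPS27A, the ubiquitin fusion, was higher by 0.45 (edgeR adjusted p = 0.049), a call lost without any 1 of 5 libraries, all but sgCtl replicate 3 (0.27 to 0.48), or with library totals alone (0.30). RPL5 was at 709, 723 and 801 CPM against 528, 552 and 684 CPM, with no overlap (0.34 ± 0.13 SE, edgeR adjusted p = 0.046). Its call was lost without any 1 of 5 libraries, all but sgCtl replicate 3 (0.26 to 0.37), or with library totals alone (0.18). RPL7L1 was lower by 0.40 (edgeR adjusted p = 0.019), lost without sgCtl replicate 1 or sgXIST7 replicate 2 or 3 (-0.35 to -0.34). In sgXIST9 RPL7 was higher by 0.38 (edgeR adjusted p = 0.030) and RPLP2 by 0.37 (adjusted p = 0.033), and both calls were lost without sgCtl replicate 1 or 2 or sgXIST9 replicate 3 (0.28 to 0.35), as was that of RPL7 without sgXIST9 replicate 1 (0.37) and that of RPLP2 without sgXIST9 replicate 2 (0.35) or with median-of-ratios factors (0.34).

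The last question was whether the response to hypoxia itself differed between lines. Tested as an interaction, 0 of 82 members differed between sgXIST7 and sgCtl, where 9.39% of all genes did, and 0 differed between sgXIST9 and sgCtl, where 5.27% did. At an unadjusted p under 0.05, 4 and 1 members differed, and DESeq2 called 0 and 1. The median interaction was 0.20 for sgXIST7 and 0.06 for sgXIST9. Without sgCtl hypoxia replicate 3, 25 members had a higher response in sgXIST7 and 0 a lower one. Of all genes 14.3% then had a higher and 12.7% a lower one, and the member median was 0.36. For sgXIST9 2 members then differed, where 18.3% of all genes did. Without sgXIST7 normoxia replicate 2 or hypoxia replicate 1, 1 member differed between sgXIST7 and sgCtl. With library totals alone the all-gene interaction of sgXIST7 moved to a median of -0.17, with 453 genes higher and 1227 lower in place of 687 and 715, and 1 member differed.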

How the data were processed

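Total RNA of OVCAR3-KRAB clonal cells was depleted of ribosomal RNA, made into stranded libraries and sequenced on a NovaSeq in paired-end mode. Per the labels and the study's methods, the authors used Trimmomatic and FastQC on the reads, HISAT2 for alignment (hg38) and featureCounts for the gene totals. The deposited values are raw counts per gene and library, not normalized. Versions and the settings for strand and for reads with several matches were not given in the sources used here, and reads shared with pseudogenes or alternate contigs can then be dropped or split. A pair of broken lines without counts were dropped, leaving 28277 genes.

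Groups came from the sample titles. Counts were tested with edgeR 4.0.16 (limma 3.58.1, R 4.3.3): TMM factors (0.859 to 1.12), filterByExpr (minimum count 10, total 15), which kept 14938 genes, 1 robust quasi-likelihood fit of 6 groups, prior count 0.125 and Benjamini-Hochberg adjustment over all tested genes. The common dispersion was 0.0321. CPM use the TMM-scaled totals. A median library held 17629433.5 counts, and 77 members had at least 100 counts in every library; the floor of 3 counts covers counting error only. On simulated counts edgeR recovered 73.7% of genes changed by a log2 of 1 and 95.9% of those changed by 2, and called 12 of 14456 unchanged genes. DESeq2 1.42.0, other scalings, no filter, only the compared groups, a replicate block and each library left out were alternatives.

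Named members were the 4 called, non-overlapping members with the largest change per direction and comparison, the stalk, the paralogs with their partners, members with known roles, the extremes of level and those under the filter. Values of some members are not reported here. Members and lists were chosen with earlier results of these data known. Same-numbered libraries were taken as paired where each correlation of their deviations from the group means passed 0.1: hypoxia against normoxia in sgCtl (0.136, 0.103 and 0.105), sgXIST7 against sgCtl in normoxia (0.265, 0.552 and 0.318) and sgXIST9 against sgCtl in hypoxia (0.255, 0.569 and 0.605). Start sequences were RefSeq's for GRCh38.p14, and gene positions those of the deposited count table.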

Additional observations from a re-analysis of the deposited data

Results flagged for a closer look

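One result differed between the knockdown lines in a direct test. RPS4X was lower in sgXIST7 than in sgXIST9 in normoxia by a log2 fold change of -1.07 ± 0.12 (SE; edgeR adjusted p = 1.4e-05), with 3 sgXIST7 libraries at 461, 382 and 466 CPM and 3 sgXIST9 libraries at 932, 896 and 913 CPM. XIST counts in these libraries were 1 to 5 and 650 to 1009. Guide, clone and XIST level cannot be told apart in this design.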

How the results depend on the processing

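Counts of members moved more with the settings than the named results did. Hypoxia in sgCtl gave 11 higher with DESeq2, 8 with median-of-ratios factors and 9 with the replicate block (3 in the reported fit), and 27 lower with library totals, 19 with the block, 3 with only the compared groups and 38 without all hypoxia replicates 3 (12 reported). In sgXIST7 library totals gave 5 higher and 21 lower (15 and 6), and in sgXIST9 library totals or only the compared groups gave 16 lower each (10). For sgXIST7 against sgCtl in normoxia, DESeq2 gave 1 and totals 2 higher (0), and totals 8 and no filter 3 lower (5). For sgXIST9 in normoxia, DESeq2 gave 6, no filter 1 and only the compared groups 17 higher (3), the last with 5 lower (0). For sgXIST7 against sgCtl in hypoxia, totals gave 3, the block 23, only the compared groups 0 and dropping hypoxia replicates 3 gave 33 higher (9), and DESeq2 gave 4, totals 8, the block 5 and only the compared groups 1 lower (2). For sgXIST9 in hypoxia, median-of-ratios gave 1, totals 5, the block 8, only the compared groups 0 and dropping hypoxia replicates 3 gave 20 higher (3). Between sgXIST7 and sgXIST9, DESeq2, the block and only the compared groups gave 4 each and totals 2 (1). The sgXIST7 interaction gave 1 with totals and 26 without hypoxia replicates 3 (0), and that of sgXIST9 gave 1 each with DESeq2, median-of-ratios, the block, only the compared groups and without hypoxia replicates 3 (0). Leaving out each library gave 2 to 9 higher and 5 to 38 lower for hypoxia in sgCtl, 9 to 14 and 4 to 9 in sgXIST7, and 2 to 7 and 5 to 9 in sgXIST9. It gave 0 to 1 and 1 to 5 for sgXIST7 and 0 to 2 and 0 to 0 for sgXIST9 against sgCtl in normoxia, 1 to 36 and 1 to 5, and 0 to 29 and 0 to 1, in hypoxia, 1 to 2 between knockdown lines, and 0 to 25 and 0 to 2 for the interactions. Calls over all genes moved too. In hypoxia 20.7% of all genes were higher in sgXIST7 than in sgCtl, against 15.3% with totals and 25.7% without hypoxia replicates 3. With the block it was 23.3%. For hypoxia in sgCtl 25.2% of all genes were lower, against 28.3% with totals and 28.5% without hypoxia replicates 3. The sgXIST7 interaction called 9.39% in either direction, against 11.2% with totals and 29.5% without hypoxia replicates 3. The cause of these shifts was not tested.

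Over 49 named results, 508 of 628 alternative values kept direction and call, 120 lost the call and 0 reversed. The replicate block and DESeq2 kept all 49. Where numbers did not pair the libraries (a correlation under 0.1), the block result shares only a number. Members with repeated sequence, 3 libraries per group and the unknown number of clones limit these values.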
